A study of Mus musculus with 5 samples.

Results

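The Cd4, Cd8a, Cd8b1 and Zbtb7b genes were examined for Runx3 peaks and for peaks of the histone mark H3K4me1 in NK cells (NKC) activated with IL-2. These 4 of 22350 protein-coding genes were taken by name, and a Runx3-bound or H3K4me1-marked region (a peak) was assigned to a gene when it overlapped, by at least 1 bp, the gene with 20 kb added at both ends, a stretch called the window here. By this rule 1 of 11676 Runx3 peaks and 8 of 34204 H3K4me1 peaks belonged to the 4 genes. The peaks came from chromatin immunoprecipitation and sequencing (ChIP-seq) of splenic NKC from ICR mice, which were purified by negative selection and grown in IL-2 (1000 units/ml, 7 days). The study's methods add a sort for DX5+ cells after the selection, which the labels do not mention. The labels give the cultured cells as all NKp46+ and the methods as nearly all, so a small share of other cells is possible. There were 2 libraries made with an in-house polyclonal anti-Runx3 antibody, 1 made with a monoclonal antibody to H3K4me1, a histone mark enriched at enhancers, and 2 made with non-immune rabbit serum (NIS) as control. All libraries were made from the same kind of cells, so the comparisons are between genes and between the Runx3 and H3K4me1 lists. No comparison with T cells or with resting NKC was made.

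Peaks were called against NIS, for Runx3 on joined reads, and hold a position only. They give no peak height, no depth per library, no NIS signal and no value for the separate Runx3 libraries, so each value below has no replicate error and no test. A window without a peak is a window where no region passed the caller's threshold, and this does not show that Runx3 or H3K4me1 was absent. As a check of the labelled cell type, 8 of 8 NKC genes had a Runx3 peak and an H3K4me1 peak in their window, among them Ncr1, which encodes NKp46, with 2 of either kind. Of 7 T cell marker genes (Cd4, Cd8a and Cd8b1 included) 5 had a Runx3 peak and 4 an H3K4me1 peak, and of 4 B cell marker genes 2 had a Runx3 peak and 3 an H3K4me1 peak. Among the T cell genes, Cd3d, Cd3e and Cd3g share their peaks, so they are not independent counts. The windows of Klrd1 and Klrk1, among the NKC genes, overlap as well. Over all protein-coding genes 41.1% had a Runx3 peak and 51.1% an H3K4me1 peak, so the T and B cell counts were near or above these shares and the check does not separate NKC from other lymphocytes. Peaks near T or B cell genes were thus present in these lists, and their part in the results below was not tested.

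Cd4 encodes the co-receptor of helper T cells, and Cd8a and Cd8b1 encode the alpha and beta chains of the co-receptor of cytotoxic T cells. Zbtb7b encodes ThPOK, the transcription factor that directs thymocytes to the CD4 lineage. In T cells, RUNX factors are known to act through a silencer in the first intron of Cd4, through enhancers between Cd8b1 and Cd8a and through a silencer of Zbtb7b, so that CD8 T cells keep Cd8 on and Cd4 and Zbtb7b off. NKC arise from the same lymphoid progenitors and express Runx3 as well, but they carry no T cell receptor.

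Runx3 recognises the RUNX motif, searched here on both strands as TGTGGT or TGTGGC and with C as the third letter, as TGCGGT or TGCGGC. Pairs of RUNX motifs that lay in no Runx3 peak are shown as examples of motifs without a peak in the first introns of Cd4 and Zbtb7b and between the Cd8 genes. The sources used here give no coordinates for the silencers and enhancers, so none was placed on the maps, and the Zbtb7b silencer is not known to lie in the intron shown. These are the pairs of RUNX motifs with starts 6 to 50 bp apart in the Cd4 first intron (chr6:124836000-124836059 and chr6:124836127-124836167), between Cd8b1 and Cd8a (chr6:71294696-71294736, chr6:71295905-71295942 and chr6:71296108-71296183) and in the Zbtb7b first intron (chr3:89186988-89187039). They are printed from the plus strand of mm9 with 10 bp to either side and the motifs in capitals.
Cd4 first intron, pair 1: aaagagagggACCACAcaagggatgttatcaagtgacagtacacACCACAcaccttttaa
Cd4 first intron, pair 2: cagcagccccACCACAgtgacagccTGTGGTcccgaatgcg
Between Cd8b1 and Cd8a, pair 1: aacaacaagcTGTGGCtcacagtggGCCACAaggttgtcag
Between Cd8b1 and Cd8a, pair 2: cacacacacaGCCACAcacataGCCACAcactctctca
Between Cd8b1 and Cd8a, pair 3: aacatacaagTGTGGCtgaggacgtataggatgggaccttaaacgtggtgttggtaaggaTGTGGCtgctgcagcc
Zbtb7b first intron, pair 1: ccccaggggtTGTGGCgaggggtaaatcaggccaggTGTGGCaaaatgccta
Pairs of this spacing were present in 32.6% of the central 300 bp of all Runx3 peaks and in 2.86% of all 300 bp tiles of the genome. The only Runx3 peak in the windows, between Cd4 and Lag3, also held a pair of this spacing. The printed pairs come from stretches far longer than 300 bp, and their number was not compared with these shares. A match to these letters does not show a binding site.

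Of the 4 genes, 1 (Cd4) had a Runx3 peak in its window, where 41.1% of all protein-coding genes had at least 1. An H3K4me1 peak was found for Cd4 and Zbtb7b, 2 of 4 genes, against 51.1% of all genes. Cd8a and Cd8b1 had neither, as did 41.6% of all genes, and Zbtb7b had H3K4me1 without Runx3, as did 17.3%. With 4 genes these counts are near the background shares and are no result about the genes as a group. The loci differed in the kind of peak. Cd4 had 1 Runx3 and 4 H3K4me1 peaks, Zbtb7b had 0 and 4, and both Cd8 genes had 0 and 0.

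**Figure D1:**
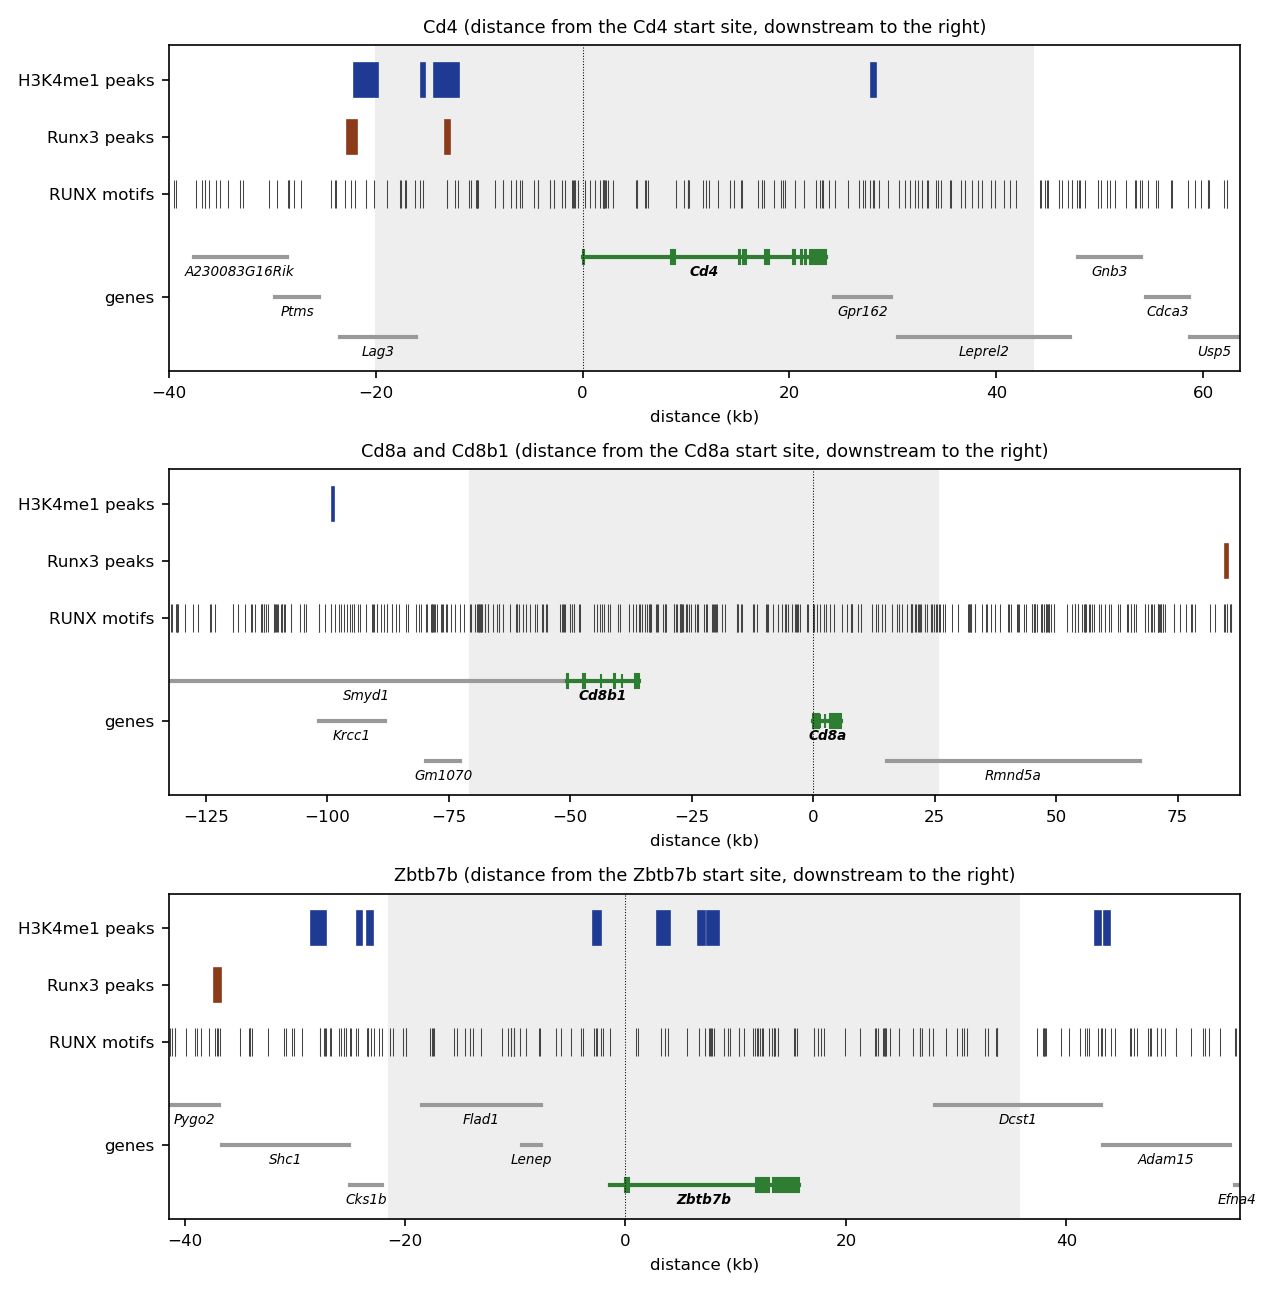
Maps of the 3 loci to scale, with distance in kb from the start site of Cd4, Cd8a or Zbtb7b on the x axis (downstream to the right) and rows for H3K4me1 peaks, Runx3 peaks, RUNX motifs and genes (members in green with their exons, other protein-coding genes in grey). Grey shading marks the windows of 20 kb around the member genes, in which a Runx3 peak lies at Cd4 only, H3K4me1 peaks at Cd4 and Zbtb7b, and RUNX motifs at all of them.

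Cd4 (ENSMUSG00000023274.7) lies on chromosome 6 from 124814710 to 124838239 of mm9 on the minus strand and has 10 exons in its reference transcript. The Runx3 peak of its window, chr6:124851110-124851540, lay between Cd4 and Lag3, outside any annotated gene, with its centre 13086 bp upstream of the Cd4 start site. It was 431 bp wide, and 4.17% of all Runx3 peaks were narrower (median 704 bp). It held 2 RUNX motifs where the median peak held 3, and 20.3% of peaks held fewer. Their centres were 16.5 and 28.5 bp from the centre of the peak. The median distance of the nearest motif was 40 bp over all 11209 peaks with a motif. Both motifs thus lay in the central 300 bp, where the median over all Runx3 peaks was 2 RUNX motifs. The rank by whole peaks compares peaks of unequal width, and a narrow peak holds less sequence. The peak also held 1 ETS motif (AGGAAA or AGGAAG, and with C as the first letter, CGGAAA or CGGAAG) and 0 AP-1 motifs (TGAGTCA or TGACTCA). The counts of this peak are over its whole 431 bp, and the shares that follow are over 300 bp only. Over all Runx3 peaks, the central 300 bp held an ETS motif in 71.9% and an AP-1 motif in 16.6%, against 55.3% and 4.66% of all 300 bp tiles. For RUNX the shares were 86.4% and 34.5%.

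The whole Runx3 peak upstream of Cd4, all 431 bp, lay inside an H3K4me1 peak, chr6:124850245-124852570. This H3K4me1 peak was 2326 bp wide, wider than 98.1% of the list, and held 4 RUNX motifs. Of all protein-coding genes, 20.5% had a Runx3 peak on an H3K4me1 peak in their window, and of all Runx3 peaks 48.4% (5651) overlapped H3K4me1. A narrower H3K4me1 peak of 446 bp (chr6:124853442-124853887) was centred 15426 bp upstream of the Cd4 start site, also between Cd4 and Lag3. The remaining pair of the Cd4 window lay in neighbouring genes. A peak of 2251 bp in Lag3 (chr6:124858077-124860327), centred 20963 bp upstream, reached 163 bp into the window. A peak of 484 bp (chr6:124809897-124810380) lay at an exon of Gpr162, an orphan receptor gene, 28100 bp downstream of the Cd4 start site. It was the only H3K4me1 peak counted for Cd4 with a flank of 5 kb. Together the H3K4me1 peaks covered 3419 bp of the Cd4 window, more bp than in 83.4% of genes. This was 5.38% of the window, a share that was not ranked.

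The nearest Runx3 peak outside the Cd4 window, chr6:124860023-124860999, lay in Lag3, an inhibitory receptor gene related to Cd4 and its neighbour on the chromosome. This peak of 977 bp started 1784 bp beyond the window and was centred 22272 bp upstream of the Cd4 start site. It held 2 RUNX and 2 ETS motifs, and 305 bp of it overlapped the H3K4me1 peak in Lag3. The Runx3 peak of the Cd4 window also lies within 20 kb of Lag3, so the rule counted it for both genes, and the lists do not say which of the genes it acts on, if any. With a flank of 5 kb in place of 20 kb, Cd4 had 0 Runx3 peaks and 1 H3K4me1 peak. The next Runx3 peaks on either side, in Spsb2 and Cops7a, were centred 79378 bp downstream and 77246 bp upstream of the Cd4 start site, and neither overlapped H3K4me1.

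The Cd4 gene itself had no Runx3 peak and no H3K4me1 peak from start to end. The Cd4 first intron, where the silencer of T cells is known to lie, spans chr6:124829712-124838097 (8386 bp) and held 18 RUNX motifs, 8 of them TGTGGT, 9 TGTGGC and 1 TGCGGT. This is 2.15 motifs per kb. None of the 18 lay in a peak. The pairs printed for this intron were centred 2.21 and 2.09 kb downstream of the start site, and the nearest Runx3 peak was 15.1 kb (pair 1) and 15.0 kb (pair 2) away. The intron had few stretches that uniquely aligned reads of 40 bp would miss, since 98.7% of its 40-mers occurred once in the genome. Between Cd4 and Lag3 there were 36 RUNX motifs in 16139 bp (2.23 per kb), of which 2 lay in the Runx3 peak and 5 in H3K4me1 peaks.

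**Figure D2:**
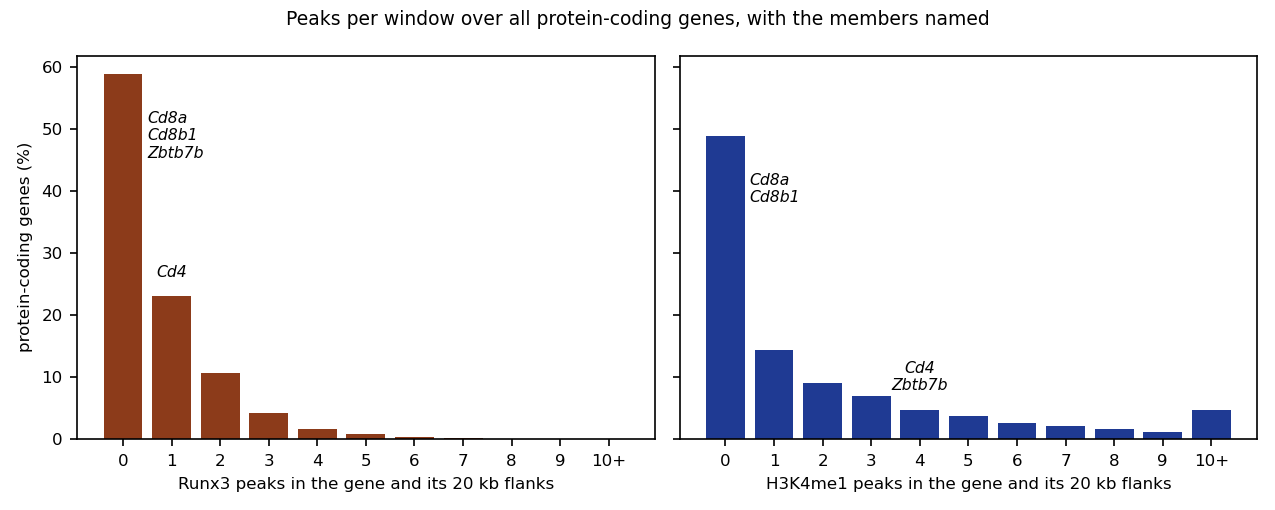
Share of 22350 protein-coding genes in percent (y axis) by the number of Runx3 peaks (left) and of H3K4me1 peaks (right) in the gene and its 20 kb flanks (x axis), with the 4 members named at their counts. The median gene has 0 Runx3 peaks and 1 H3K4me1 peak, and Cd4 and Zbtb7b stand at 4 H3K4me1 peaks, where 79.4% of genes have fewer.

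The Cd8 genes were without peaks over a long stretch. Cd8b1 (ENSMUSG00000053044.7, chr6:71272830-71287471, plus strand, 6 exons) and Cd8a (ENSMUSG00000053977.7, chr6:71323421-71329165, plus strand, 5 exons) are neighbours, and their windows join into 96336 bp. No Runx3 peak lay on this part of chromosome 6 between 70781668 and 71408070, a gap of 626.4 kb. Of the 11656 gaps between neighbouring Runx3 peaks, 93.4% were shorter and the median was 49.2 kb. Long gaps cover more of the genome, so a gap over a given gene tends to be longer than most in the list. The ranks of gaps given here count each gap once and do not measure how unusual a gap over a gene is. The nearest Runx3 peak, chr6:71408070-71408849, was intergenic, had no H3K4me1 and was centred 85038 bp downstream of the Cd8a start site and 135630 bp downstream of that of Cd8b1. It held 3 RUNX motifs, 3 ETS motifs and 1 AP-1 motif.

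The H3K4me1 list had a gap of 481.5 kb over the Cd8 genes. Of 34184 such gaps 97.5% were shorter and the median was 4.41 kb. This rank also counts each gap once. The nearest H3K4me1 peak, chr6:71224354-71224858, was 505 bp wide, held 0 RUNX motifs and lay in introns of Krcc1 and Smyd1. Its centre was 48224 bp upstream of the Cd8b1 start site and 98815 bp upstream of that of Cd8a. A flank of 50 kb took this peak into the Cd8b1 count, and the Cd8a count stayed at 0.

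RUNX motifs were not scarce at the Cd8 genes. The windows held 101 motifs at Cd8b1 (1.85 per kb, with 65.5% of genes lower) and 73 at Cd8a (1.60 per kb, with 40.6% lower), where the median gene had 1.69 per kb and the quartiles were 1.43 and 1.96. Cd4 with 122 motifs (1.92 per kb) and Zbtb7b with 110 (1.93 per kb) also lay between the quartiles. The 35949 bp between Cd8b1 and Cd8a, which hold known Cd8 enhancers of T cells, contained 69 RUNX motifs (30 TGTGGT, 31 TGTGGC, 6 TGCGGT and 2 TGCGGC) and 6 AP-1 motifs. The pairs printed for this stretch were 28.7, 27.5 and 27.3 kb upstream of the Cd8a start site. No Runx3 peak came nearer to them than 112 kb and no H3K4me1 peak nearer than 69.8 kb. Of the 40-mers in this stretch 95.4% occurred once in the genome. The share was 89.9% over the Cd8b1 window and 94.2% over the Cd8a window, against 98.5% inside all Runx3 peaks, and the longest run of 40-mers that were not unique was 1230 bp over the joined Cd8 windows.

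**Figure D3:**
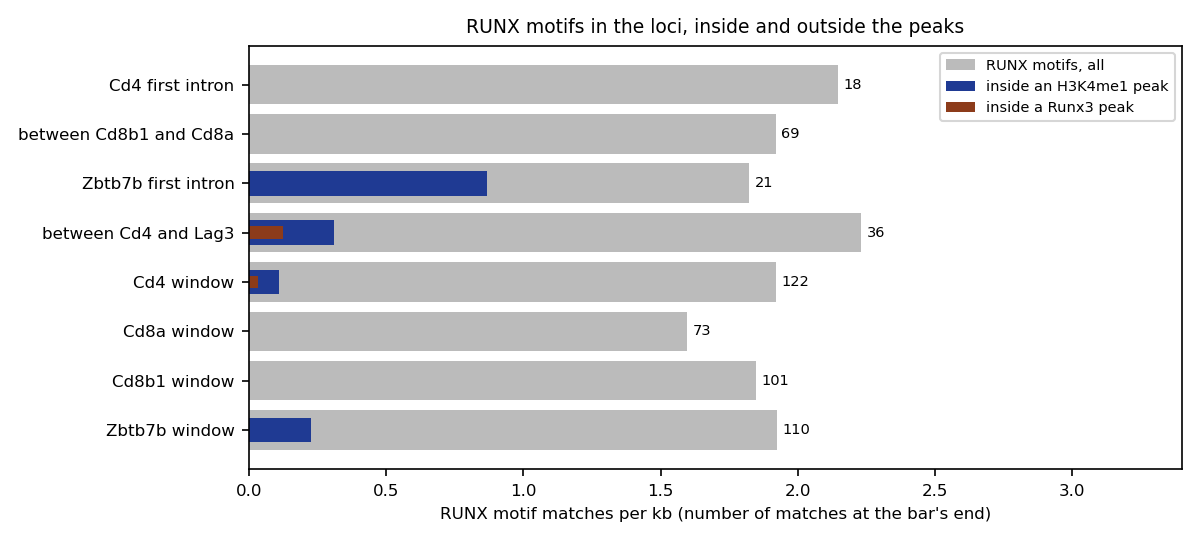
RUNX motif matches per kb (x axis, the number of matches at the end of each bar) in the windows of the 4 genes and in stretches of them (rows), with the matches inside an H3K4me1 peak in blue and inside a Runx3 peak in brown. Of 18 motifs in the Cd4 first intron and 69 between Cd8b1 and Cd8a none lies in a peak, and of 21 in the Zbtb7b first intron 10 lie in H3K4me1 peaks.

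At Zbtb7b (ENSMUSG00000028042.8, chr3:89181566-89198698, minus strand) there was H3K4me1 without Runx3. Its 4 H3K4me1 peaks covered 3639 bp, more bp than in 84.4% of genes. This was 6.37% of the window, a share that was not ranked. Of all protein-coding genes, 3.08% (689) had at least 4 H3K4me1 peaks and no Runx3 peak. Among the 1062 genes with exactly 4 H3K4me1 peaks, as at Zbtb7b and Cd4, 790 (74.4%) had a Runx3 peak. Cd4 belonged to these and Zbtb7b did not.

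Inside Zbtb7b, 3 H3K4me1 peaks lay at or in the first intron. They were chr3:89188833-89189857 (1025 bp, 7939 bp downstream of the reference start site at 89197284, partly on a UTR exon of another transcript), chr3:89190030-89190744 (715 bp, 6897 bp downstream) and chr3:89193212-89194418 (1207 bp, 3469 bp downstream). They held 5, 2 and 3 RUNX motifs. The fourth peak, chr3:89199501-89200192, was 692 bp wide, held 3 RUNX motifs and lay 2562 bp upstream of the start site in Gm15417. The first intron of Zbtb7b, 11519 bp, held 21 RUNX motifs, of which 10 lay in H3K4me1 peaks and 0 in a Runx3 peak. This differed from the Cd4 first intron, where 0 of 18 lay in either. The Zbtb7b pair printed with the sequences was 1.80 kb from the nearest H3K4me1 peak and 47.0 kb from the nearest Runx3 peak. In this intron 99.3% of 40-mers occurred once in the genome.

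The nearest Runx3 peak to Zbtb7b, chr3:89233993-89234654, lay 15295 bp beyond the window and 37040 bp upstream of the start site. It was on a UTR exon of Pygo2, held 4 RUNX motifs, had a GC content of 72.1% and did not overlap H3K4me1. With a flank of 50 kb it entered the window and the H3K4me1 count rose from 4 to 10. The gap between Runx3 peaks over Zbtb7b was 198.2 kb, longer than 80.5% of gaps, and that over the Cd4 start site was 92.0 kb, longer than 64.6%. The H3K4me1 gap over the start site was 5.08 kb at Zbtb7b and 39.9 kb at Cd4, longer than 52.0% and 80.7% of gaps. As for the Cd8 genes, these ranks count each gap once and do not measure how unusual a gap over a gene is.

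**Figure D4:**
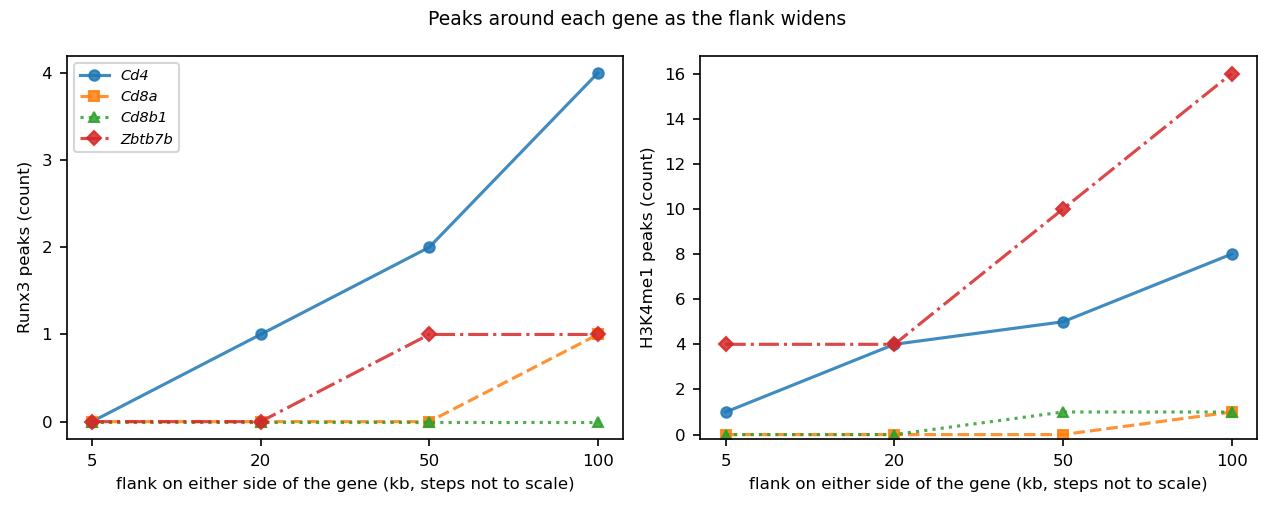
Number of Runx3 peaks (left) and H3K4me1 peaks (right) counted for each member as the flank on either side of the gene grows from 5 to 100 kb (x axis, steps not to scale), lines by gene. Cd4 goes from 0 to 4 Runx3 peaks and Zbtb7b from 0 to 1, while Cd8a reaches 1 and Cd8b1 stays at 0 at 100 kb. For H3K4me1, Zbtb7b reaches 16 and Cd4 8, and the Cd8 genes 1 each.

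None of the 4 genes had a Runx3 or an H3K4me1 peak within 1 kb of its reference start site, where 12.2% and 13.0% of protein-coding genes had one. Zbtb7b has 10 annotated transcripts. Of their other starts, those at 89191593, 89191111 and 89198698 had 1 H3K4me1 peak each within 1 kb, and none had a Runx3 peak.

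The other genes of the CD4/CD8 lineage choice, which encode factors that steer thymocytes to either fate, were counted in the same way. Of 18 such genes 14 had at least 1 Runx3 peak (median 1.5, range 0 to 14) against 41.1% of all protein-coding genes, 16 had H3K4me1 against 51.1%, and 7 had a Runx3 peak on H3K4me1 against 20.5%. These shares were not tested. The RUNX factor genes Runx1 with 14 and Runx3 with 6, the T cell factor gene Lef1 with 6 and the cytokine signalling inhibitor gene Socs1 with 5 had the most. Like Zbtb7b, the genes Bcl11b, Cbfb (the partner of RUNX proteins), Id3 and Zbtb7a had 0 Runx3 peaks and at least 1 H3K4me1 peak. Zbtb7a, a gene of the same family as Zbtb7b, had 9 H3K4me1 peaks. A window grows with its gene, so counts of long genes such as Runx1 also hold more sequence.

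Of the genes of T cell receptor and co-receptor signalling, 11 of 11 described here had at least 1 Runx3 peak (median 2) and H3K4me1, and in 10 a Runx3 peak lay on H3K4me1, beside the same 41.1%, 51.1% and 20.5% of all genes. Cd5, an inhibitory receptor of T cells, had 4 Runx3 peaks. Cd247, Cd28 and Lck, the kinase that binds the tails of CD4 and CD8, had 3 each. Lag3 had 2, of which 1 is the peak upstream of Cd4. The windows of Cd3d, Cd3e and Cd3g overlap and share their peaks, so their 2 Runx3 peaks are not independent counts. No test was made of these lists against other genes.

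**Figure D5:**
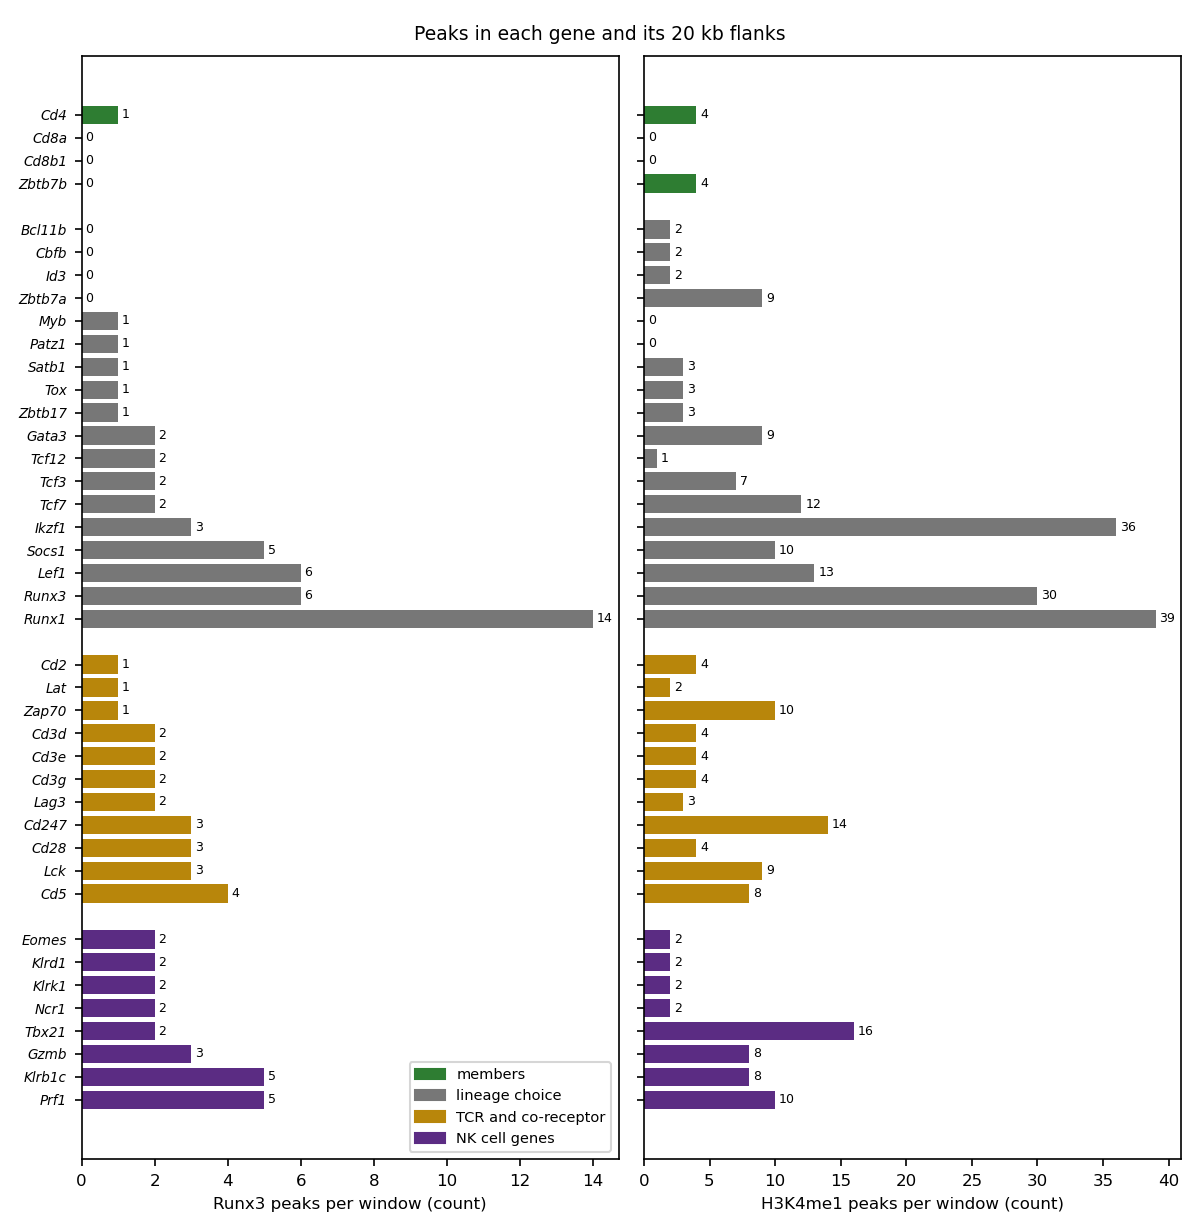
Bars of the number of Runx3 peaks (left) and H3K4me1 peaks (right) per window for the 4 members (green), 18 lineage choice genes (grey), 11 genes of T cell receptor (TCR) and co-receptor signalling (gold) and 8 NKC genes (purple). The members have 0 or 1 Runx3 peaks. The lineage choice genes have a median of 1.5, from 0 at Bcl11b, Cbfb, Id3 and Zbtb7a to 14 at Runx1, and the signalling genes a median of 2, up to 4 at Cd5.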

How the data were processed

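Only peak positions were used. Per the labels and the study's methods, the authors mapped reads of 40 bp with ELAND (genome build mm9), dropped those without a unique position, joined the reads of replicate libraries, scaled the larger dataset to the smaller and called peaks with MACS against NIS. The methods speak of biological repeats, while the labels list 1 H3K4me1 library. The deposited lists hold chromosome, start and end, and the Runx3 list a peak name, with no score, count or value per library. Starts, counted from 0 in the lists, are given from 1.

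Peaks were set against the protein-coding genes of GENCODE M1 on the 19 autosomes and chromosome X of the same build, with at least 1 bp of overlap and a flank of 20 kb. Motifs and 40-mers were searched in the genome sequence of that build. The reference start is that of the transcript whose name ends in -001, or of the longest protein-coding transcript. The named genes are the members, genes overlapping their windows or holding the nearest peaks, and from each list the 4 with the most and those with 0 Runx3 peaks. Others that tie or mark cell types are named as such. Trac, on the T cell list, was not found under that symbol. Some items are not reported here. The members and lists were chosen with earlier results of these data known. Simulated data with known answers were used to test the overlap, motif and 40-mer steps. Calculations used python 3.11.15, numpy 2.4.6, pandas 2.3.3, pysam 0.24.0, numba 0.67.0, samtools 1.23.1 and matplotlib 3.10.9.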

Additional observations from a re-analysis of the deposited data

How the results depend on the processing

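The results were counted again with flanks of 5 and 50 kb, peak centres in place of overlap, peaks within 1 kb joined, the reference transcript only, other overlaps with H3K4me1, the central 200 bp, TGTGGT only and genes of all biotypes. A flank of 100 kb was chosen after seeing the data. Of 66 alternative values 52 were equal to the reported one or within 1.5 times of it and 14 moved, all of them with the flank. By this rule an H3K4me1 count of 3 or 5 at Cd4 in place of 4 did not count as moved. A count of 0 cannot rise with a narrower flank, peak centres, joined peaks or the reference transcript. So part of the 52 could not have moved, and the tally is no measure of robustness. At 5 kb Cd4 had 0 Runx3 peaks and 1 H3K4me1 peak. At 50 kb there were 2 Runx3 peaks at Cd4 and 1 at Zbtb7b, and 10 H3K4me1 peaks at Zbtb7b and 1 at Cd8b1. At 100 kb there were 4, 1 and 1 Runx3 peaks at Cd4, Cd8a and Zbtb7b, and 8, 1, 1 and 16 H3K4me1 peaks at Cd4, Cd8a, Cd8b1 and Zbtb7b. The share of protein-coding genes with a Runx3 peak was 28.8% at 5 kb, 55.4% at 50 kb and 67.5% at 100 kb. No paired analysis was possible because the lists hold peaks of joined libraries with no value per library, and for the same reason no library could be left out in turn. Depth per library is not in the lists. The study's methods give read totals for Runx3, H3K4me1 and NIS, with fewer reads for H3K4me1 than for Runx3. Whether a window without a peak falls below detection cannot be told apart from a window without binding.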
